A study of Mus musculus with 12 samples.

Results

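The genes described here are 10 markers of interneurons that arise in the caudal ganglionic eminence: Nr2f1, Nr2f2, Sp8, Prox1, Npas1, Npas3, Reln, Adarb2, Htr3a and Id2. They were taken by name, and their listed H3K9me3 regions are the rows of the authors' deposited table that carry 1 of these symbols. There were 22 such regions among 50654, and they lay at 4 of the 10 genes (Npas3 with 8, Reln with 7, Adarb2 with 6 and Nr2f2 with 1). H3K27ac peaks were counted in each gene or within 2.5 kb of it.

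The libraries come from neural progenitors grown as neurospheres from the ganglionic eminence of C57BL/6 mouse embryos at stage E15.5. The knockout (KO) group carries the genotype label Nestin-KO, in a series on the histone methyltransferase SETDB1, and is set against wild type (WT). Nestin is a gene of neural progenitors, whose regulatory sequence is commonly used to drive Cre there. The allele, the Cre line and any genotype shared by the WT animals are not given in the sources used here. Each group had 3 animals for each mark, 12 libraries in all, each from 100000 nuclei. For H3K9me3 all 3 KO animals were male, while 2 of the 3 WT animals were female. For H3K27ac each genotype had 1 female and 2 males. The sample titles also carry a first number, whose meaning is not given. For H3K9me3, 1 KO and 1 WT animal shared this title number. A different number was found in 2 KO animals and in no WT animal, and another in 2 WT animals and in no KO animal. For H3K9me3 the title number was thus largely confounded with genotype. For H3K27ac the title numbers were split alike in both genotypes. In a culture, a change in the mix of cells and a change within each cell cannot be told apart.

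Cortical interneurons are born in the ganglionic eminences of the ventral forebrain. The caudal eminence gives rise to most of those that carry the serotonin receptor HTR3A, among them the reelin and VIP classes. H3K9me3, which SETDB1 places, is found on silenced chromatin, whereas H3K27ac is found at promoters and enhancers in use. Among the 10 genes, Nr2f1, Nr2f2, Sp8, Prox1, Npas1 and Npas3 encode transcription factors, and Id2 encodes an inhibitor of such factors. Reln encodes the secreted glycoprotein reelin, Adarb2 an RNA-binding protein of the ADAR family, and Htr3a the ligand-gated serotonin receptor subunit.

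Mean H3K9me3 in KO was below that in WT at 21 of the 22 listed regions of these genes, against 71.1% of all listed regions and 82.9% of those in gene bodies, and few of the 22 passed a test that uses the spread between animals. A promoter region of Nr2f2 and gene-body regions of Npas3 and Reln were lower in KO, and 1 region of Npas3 went the other way. With limma on log2(value + 1) and Benjamini-Hochberg adjustment over all listed regions, 4 regions were lower in KO at an adjusted p of 0.05 or less, 2 at Npas3, 1 at Reln and 1 at Nr2f2, and 0 were higher. That is 18.2% of the 22 regions, between the 14.9% of all listed regions and the 20.02% of gene-body regions that were called lower (1.24% of all were called higher). At an unadjusted p under 0.05 there were 17 of the 22, or 77.3%, against 60% of all and 67.2% of gene-body regions. Dropping any WT value, or the first or the second KO value, ended all 4 calls, and in each of these settings 0 of all 50654 regions were called lower. The log2 fold change of the Nr2f2 region then stayed between -1.59 and -1.31. Under median-ratio scaling over the listed regions it moved to -0.63 and did not pass (limma adjusted p = 0.182). Nearly every region in the authors' deposited table has an adjusted p of 0.05 or less there. The regions were thus selected on these same libraries, so the limma adjusted p-values are too small and being listed is itself a selection. The 3 normalised values of each genotype are listed in a fixed order that is not tied to animals, and they are given in that order.

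Nr2f2, also called COUP-TFII, is a nuclear receptor expressed in caudal eminence progenitors and their interneurons. Its listed region was the only promoter region among the 22. It lay at chr7:70368601-70370300 (mm10) upstream of the gene, centred at -2.70 kb from the start, in the table's class of promoters within 3 kb. The KO values were 22.9, 34.0 and 26.9 normalised reads, against 67.4, 80.4 and 83.4 in WT. All 3 KO values were below all 3 WT values, and the spread within each genotype was small. The means were 27.9 ± 5.61 in KO and 77.0 ± 8.51 in WT (SD, n = 3), and limma gave a log2 fold change of -1.44 ± 0.31 (SE, adjusted p = 0.0471). Here the third KO value was not the highest of its group, unlike at 20 of the 22 regions. The 250 bases before the start of Nr2f2, from RefSeq (GRCm38.p6, gene strand, CpG in capitals), are shown because the region lies upstream of the same start. The region does not overlap them. They are set beside those of Reln, the most CpG-rich of the 9 genes with a window in the RefSeq table (Htr3a has none there), and of Prox1, which had an H3K27ac peak within 1 kb of its start in every library.
Nr2f2 (chr7:70366747-70366996, minus strand): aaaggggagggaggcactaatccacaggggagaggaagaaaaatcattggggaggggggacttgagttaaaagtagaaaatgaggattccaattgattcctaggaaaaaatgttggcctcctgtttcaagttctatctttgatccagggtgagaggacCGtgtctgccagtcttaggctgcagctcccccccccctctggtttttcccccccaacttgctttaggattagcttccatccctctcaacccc
Reln (chr5:22344706-22344955, minus strand): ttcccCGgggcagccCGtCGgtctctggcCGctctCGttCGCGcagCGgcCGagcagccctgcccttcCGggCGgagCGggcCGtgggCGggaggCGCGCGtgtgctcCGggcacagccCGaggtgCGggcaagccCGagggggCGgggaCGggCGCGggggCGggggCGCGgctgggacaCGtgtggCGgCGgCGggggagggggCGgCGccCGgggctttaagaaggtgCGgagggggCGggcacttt
Prox1 (chr1:190170828-190171077, minus strand): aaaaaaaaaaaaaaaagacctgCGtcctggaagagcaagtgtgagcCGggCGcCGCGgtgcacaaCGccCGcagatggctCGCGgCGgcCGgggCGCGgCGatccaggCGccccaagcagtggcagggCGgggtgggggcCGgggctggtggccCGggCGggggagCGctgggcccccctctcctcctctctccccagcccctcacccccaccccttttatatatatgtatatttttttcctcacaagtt

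These 250 bases held 1 CpG at Nr2f2, 37 at Reln and 20 at Prox1. RefSeq gave 13 windows of 300 bases (250 before to 50 after a start) for these 9 genes. Over 32851 such windows the median was 7 CpG, and 1.44% had at least the 47 of Reln. The Nr2f2 window was among the CpG-poor ones, since 85.9% of windows had at least its 2. It was the only window given for this gene, and any other start of Nr2f2 was not assessed. The CG dinucleotide was the only motif searched, and it reads the same on both strands.

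Npas3, a basic helix-loop-helix transcription factor, had 8 listed regions over 824 kb of gene, all in the gene body. The table does not tell exons from introns. The first of the 3 with the smallest limma p lay near the end of the gene (chr12:54067901-54069700), 820 kb from the start. It had 15.3, 12.2 and 37.8 normalised reads in KO, against 65.6, 135 and 92.8 in WT. The groups did not overlap, although the third KO value stood well above the other two. The log2 fold change was -2.22 ± 0.47 (SE; limma adjusted p = 0.0471). Another, at chr12:53707101-53708500, had 15.3, 9.59 and 36.1 normalised reads in KO and 51.4, 85.3 and 54.4 in WT, a log2 fold change of -1.76 ± 0.51 (SE; limma adjusted p = 0.0492). It had the same shape, with 2 low KO values and another that came nearer to WT without reaching it. The last, at chr12:53721701-53722700, had 15.3, 3.05 and 12.6 normalised reads in KO and 37.2, 45.1 and 59.5 in WT. All its KO values were low, but it missed the threshold (log2 fold change -2.30 ± 0.75, SE; limma adjusted p = 0.0546).

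The region of Npas3 with more H3K9me3 in KO lay at chr12:53581501-53583300, 334 kb into the gene. It had 40.8, 48.0 and 95.8 normalised reads in KO and 21.3, 38.6 and 63.1 in WT. The groups overlapped, and the limma log2 fold change was 0.60 ± 0.48 (SE; adjusted p = 0.243). The authors' deposited table lists it at a log2 fold change of 0.59 with an adjusted p of 0.00103. Under median-ratio scaling it was called higher (limma log2 fold change 1.41, adjusted p = 0.0227). The remaining 4 regions of Npas3 had lower KO means and did not pass. Over the 8 regions the limma log2 fold changes ran from -3.03 to 0.60, with a median of -1.99.

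Reln is best known as the signal of Cajal-Retzius cells and is also made by a class of cortical interneurons. Its 7 listed regions lay in the gene body between 125 and 354 kb from the start, over a gene of 460 kb, and each had a lower mean in KO. The region that passed was the closest to the start (chr5:22218601-22219900). It had 5.09, 14.0 and 24.4 normalised reads in KO and 54.95, 53.31 and 53.65 in WT. The WT values lay within 2 reads of each other, and each KO value was less than 50% of any of them. The log2 fold change was -2.06 ± 0.58 (SE; limma adjusted p = 0.0487). At chr5:22070201-22071200 the values were 10.2, 10.5 and 23.5 normalised reads in KO and 49.6, 52.5 and 31.9 in WT, and at chr5:22201601-22202900 they were 10.2, 27.03 and 34.5 in KO and 53.2, 50.03 and 67.4 in WT. The groups did not overlap at either region, and neither passed (limma adjusted p = 0.0562 and 0.0591). The other 4 regions of Reln had limma log2 fold changes from -3.05 to -0.75.

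Adarb2 labels a broad set of caudal eminence interneurons in the adult cortex. It had 6 listed regions, all in the gene body, between 172 and 437 kb from the start of a 566 kb gene. Of these, 0 passed limma, although the KO mean was lower at each and all KO values lay below all WT values at 5 of the 6. The nearest to passing was chr13:8639101-8640800, with 15.3, 14.0 and 51.3 normalised reads in KO and 86.9, 71.4 and 63.1 in WT. The third KO value approached WT while the first and the second did not (log2 fold change -1.67 ± 0.50, SE; limma adjusted p = 0.0504). At chr13:8473001-8474600 the values were 40.8, 34.4 and 44.5 in KO and 81.5, 70.5 and 76.1 in WT. This was the most even of the Adarb2 regions, with a small spread in both groups and a log2 fold change of -0.92 ± 0.28 (SE; limma adjusted p = 0.0518). At chr13:8580001-8582000 the KO values were 0, 18.3 and 53.8 against 81.5, 92.7 and 81.2 in WT. The KO values were spread from 0 to more than 50% of WT (log2 fold change -3.08 ± 1.22, SE; limma adjusted p = 0.0702). The first KO value was 0 at 4 of the 22 regions, 1 at Npas3, 1 at Adarb2 and 2 at Reln (18.2%, against 5.44% of all listed regions and 7.61% of those in gene bodies), and the size of the fold change there depends on the pseudocount.

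**Figure D1:**
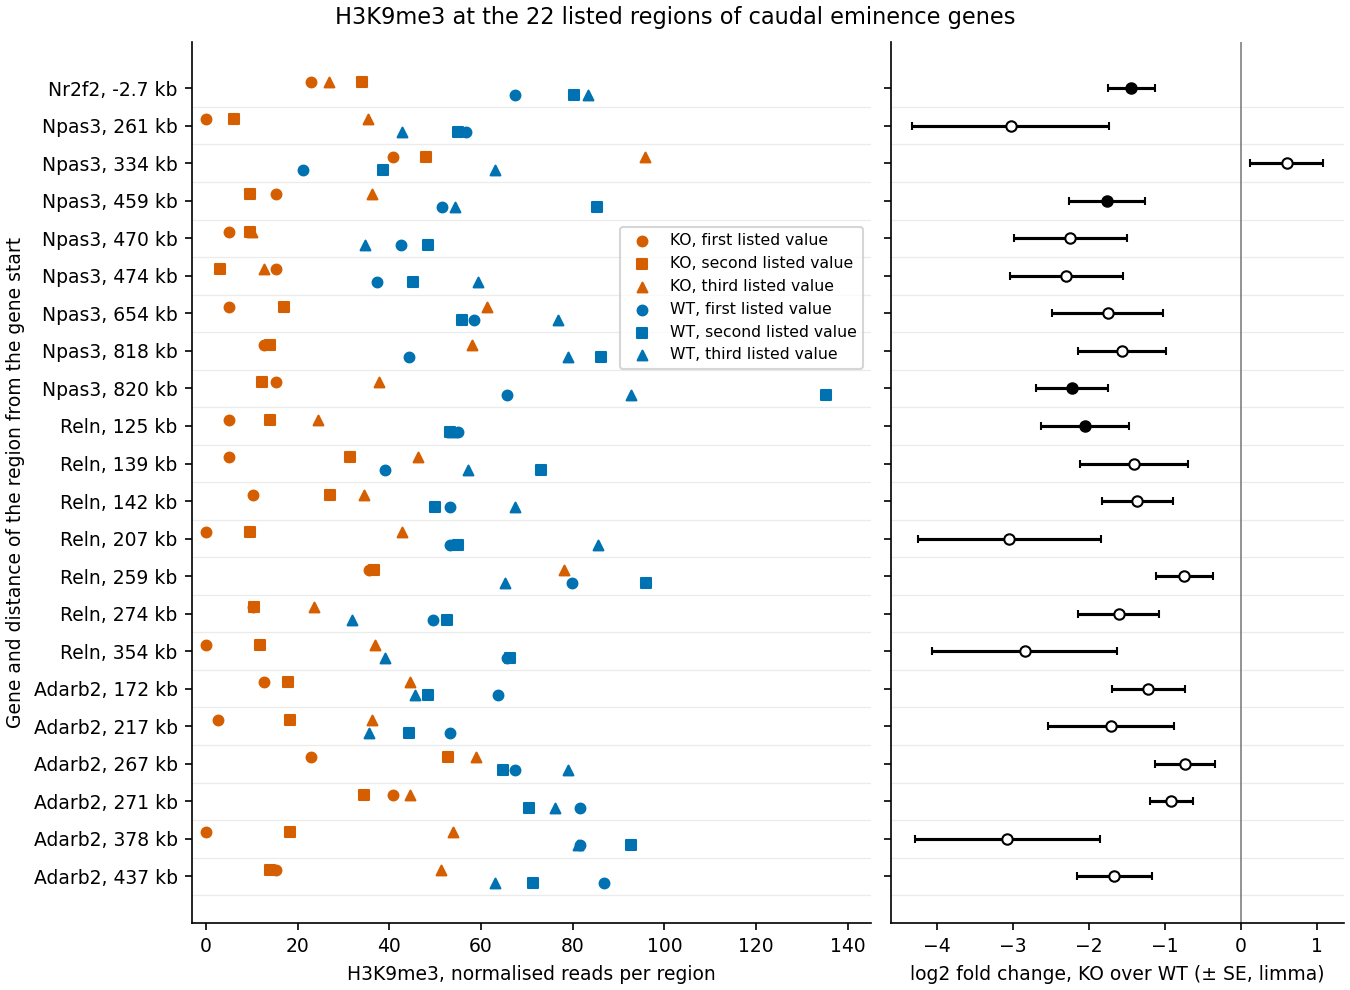
H3K9me3 at the 22 listed regions, by gene and distance from the gene start (kb). Left, each listed value (normalised reads per region) with KO above WT in each line and the marker shape giving the listed position; right, the limma log2 fold change of KO over WT with its SE, filled where the adjusted p is 0.05 or less. KO values lie left of WT at 16 of 22 regions without overlap, and 4 points are filled.

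The third KO value was closer to WT than the other KO values at most of these regions. It was the highest KO value at 20 of the 22 regions (73.8% of all listed regions, 84.3% of those in gene bodies). It lay within the range of the WT values at 5 (22.7%, against 13.4% of all and 16.1% of those in gene bodies). Median values over the 22 regions were 11.5, 15.48 and 40.3 normalised reads in KO and 55.8, 60.3 and 63.1 in WT. Summed over the 8 regions of Npas3, KO had 110, 119 and 347 normalised reads and WT had 378, 550 and 503. Summed over the 7 of Reln, KO had 66.2, 141 and 287 and WT had 395, 446 and 400. Over the 6 of Adarb2 the sums were 94.3, 156 and 289 in KO and 434, 392 and 381 in WT. At each gene the order of the KO values was the same and all 3 sums lay below WT, although the third KO sum came within 10% of the lowest WT sum at Npas3 alone. Which animal the third value came from is not given, and whether sex or the numbers in the titles go with it was not tested.

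Where the number of lower calls at these genes moved with the test, it moved in the same direction as in the whole table, but not to the same extent. Without the third KO value, limma called 21 of the 22 regions lower, against 61.1% of all listed regions and 9186 of the 11902 in gene bodies. Leaving out any other value gave 0 calls, where 7 to 14 of the 22 and 32.0% to 50.5% of all had an unadjusted p under 0.05. A pseudocount of 0.5 gave 2 lower calls (9.09%), against 12.1% of all, and a pseudocount of 5 gave 14 (63.6%), against 33.3% of all. Whole reads could be recovered from the steps of the values. On these reads limma-voom called 18 of the 22 lower, against 58% of all and 8576 of the 11902 in gene bodies. The 4 that it did not call were the higher region of Npas3, 2 at Reln and 1 at Adarb2. Of the 22 regions, 21 were lower in the authors' deposited table at an adjusted p of 0.05 or less, against 71.1% of all. All 3 KO values lay below all 3 WT values at 16 of the 22, or 72.7%, against 54.2% of all listed regions and 64.6% of those in gene bodies. Among regions with a lower KO mean the share was 76.2% at these genes, against 76.3% of all. Median-ratio scaling over the listed regions moved log2 fold changes up by a median of 0.81. It left 2 of the 22 lower, 1 at Npas3 and 1 at Reln, and 1 higher. The lower calls made up 5.97% of all listed regions and 1117 of the 11902 in gene bodies. Over the whole table this scaling turned 7551 lower and 627 higher calls into 3025 lower and 14045 higher ones, and at 1 Reln and 1 Adarb2 region the sign changed. The median log2 fold change of the 22 regions was -1.69, against -1.04 over all listed regions and -1.33 over those in gene bodies. Since 21 of the 22 are gene-body regions, the last is the closer comparison.

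**Figure D2:**
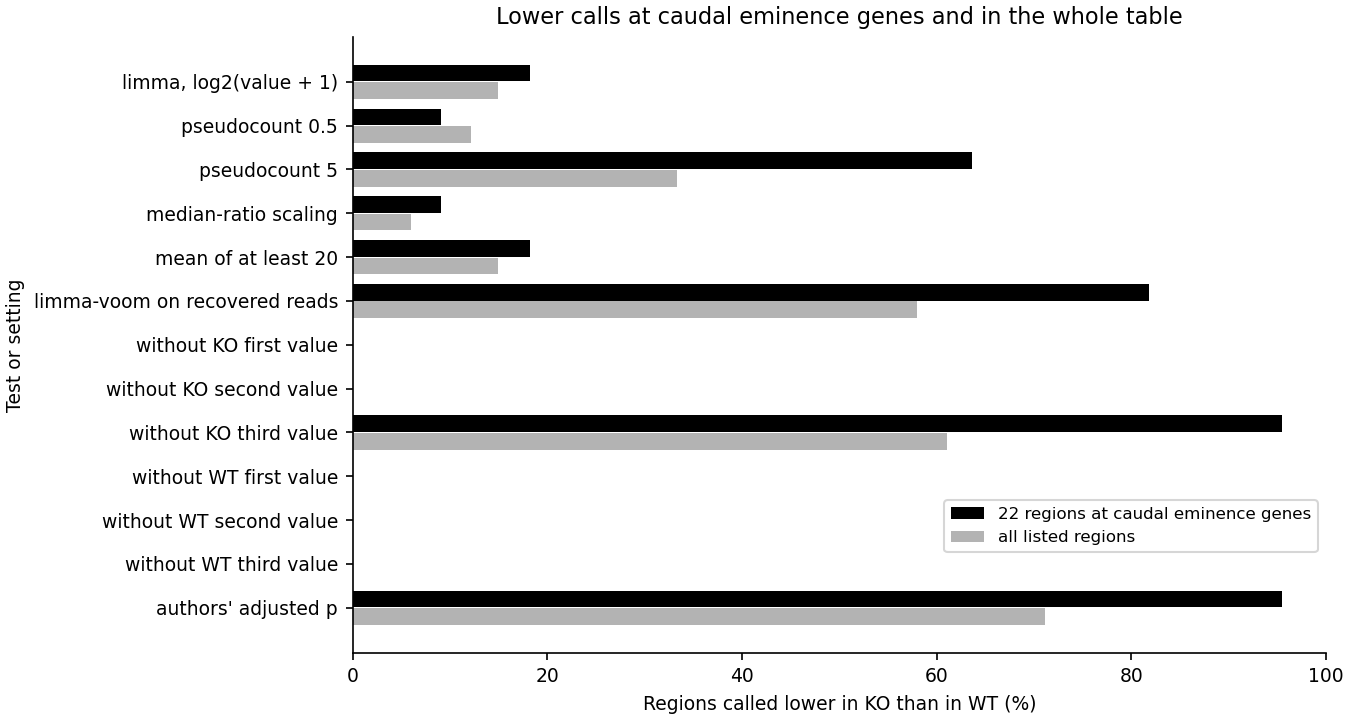
Share of regions called lower in KO than in WT (%), for the 22 regions at caudal eminence genes (black) and all 50654 listed regions (grey), under each test or setting, with an adjusted p of 0.05 or less throughout. With limma the shares are 18.2% and 14.9%; both are highest in the authors' deposited table and without the third KO value, and both are at 0 when any other listed value is left out.

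Apart from 1 region at Nr2f2, the listed regions were found at the long genes of the set. Npas3, Reln and Adarb2 are each over 400 kb, and of the 352 genes in the reference of at least that length 92.0% had a listed region, with a median of 5. Per 100 kb there were 0.97 regions at Npas3, 1.52 at Reln and 1.06 at Adarb2, against a median of 0.83 over these 352 genes. Of the genes of at most 60 kb, which include the other 7 members, 13.5% had a listed region. Among these 7 members, Nr2f2 alone did.

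Nr2f1, Sp8, Prox1, Npas1, Htr3a and Id2 had 0 listed H3K9me3 regions, which does not show that the mark was absent there. The nearest listed region lay 0.935 kb from Prox1, a homeodomain factor of migrating and postmitotic caudal interneurons. It had 5.09, 6.54 and 57.2 normalised reads in KO and 42.5, 78.7 and 46.4 in WT. The third KO value lay among the WT values, and the region did not pass (limma adjusted p = 0.0755). The distance was 5.78 kb for Npas1, a transcription factor expressed in interneurons, and 19.3 kb for Sp8, a zinc finger factor of caudal eminence progenitors. The region next to Sp8 was intergenic, with 30.6, 23.5 and 41.2 normalised reads in KO and 60.3, 71.4 and 82.7 in WT. It was lower in KO, with no overlap (log2 fold change -1.17 ± 0.33, SE; limma adjusted p = 0.0488). Under median-ratio scaling its log2 fold change was -0.35 and it did not pass (limma adjusted p = 0.403). For Nr2f1 the distance was 22.2 kb, into the gene A830082K12Rik (limma adjusted p = 0.0502). Id2 and Htr3a were the most remote. The listed region nearest to Id2 was 125 kb away, with 25.5, 26.6 and 44.5 normalised reads in KO and 85.1, 116 and 87.0 in WT. It was lower in KO without overlap (log2 fold change -1.58 ± 0.33, SE; limma adjusted p = 0.0471). Under median-ratio scaling its log2 fold change was -0.76 and it did not pass (limma adjusted p = 0.0540). The listed region nearest to Htr3a was 189 kb away, in the gene Zbtb16, and did not pass (limma adjusted p = 0.196).

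Of 17 further genes of the caudal lineage (Vip, Cck, Calb2, Cnr1, Lamp5, Ndnf, Npy, Sncg, Cxcl14, Sp9, Gsx2, Chat, Crh, Tac2, Scgn, Egln3 and Ap1s2), 1 had a listed region. This was Egln3, a prolyl hydroxylase that acts on hypoxia-inducible factor. Its region (chr12:54186801-54188000, gene body) had 7.64, 13.5 and 29.4 normalised reads in KO and 37.2, 58.2 and 54.4 in WT. The groups did not overlap, and it passed limma-voom (adjusted p = 0.00326) but not limma (adjusted p = 0.0550). With limma, 0 of the 17 genes thus had a called region, and the single listed region had an unadjusted p of 0.0136. Over all genes of the reference 21.7% had a listed region.

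The numbers of H3K27ac peaks overlapped between the genotypes at each of the 10 genes. The share of all genes with such overlap was not counted, so this is not read as a trait of these genes. The 6 peak lists differed in length more than the genotypes did, with 26344, 42651 and 11446 peaks in KO replicates 1 to 3 and 31912, 37289 and 12446 in WT. Peaks at the 10 genes numbered 35, 66 and 11 in KO and 47, 53 and 20 in WT, so the shortest list had the fewest. Per 10000 peaks of a list, that is 13.3, 15.47 and 9.61 in KO and 14.7, 14.2 and 16.1 in WT. The number of members with a peak was 8, 8 and 5 of 10 in KO and 7, 8 and 7 of 10 in WT, where 53.9%, 57.5% and 29.7% of all genes had a peak in KO and 57.0%, 56.3% and 31.7% in WT. Tested gene by gene on the number of peaks, the exact permutation p, two-sided, ran from 0.4 to 1, where the smallest possible with 3 against 3 is 0.1. A difference could not have passed in this design. As a check of the cells, 6 to 10 of 10 progenitor genes had a peak in each library, but subpallial GABAergic genes did at 0 of 9 in each KO library and at 2, 1 and 0 of 9 in WT, and Dlx2, Dlx5, Dlx6, Gad2, Gsx1, Gsx2 and Slc32a1 had none in any. Glial genes had a peak at 4 to 6 of 6 in 5 libraries and at 0 of 6 in WT replicate 3, and pallial excitatory genes at 0 or 1 of 8. Medial eminence genes had a peak at 2 to 5 of 10, vascular genes at 1 or 2 of 5, and microglia and blood genes at 1 to 3 of 6.

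Prox1 carried the most even H3K27ac of the set. A merged region at its start (chr1:190169988-190170900) held a peak in all 6 libraries, with a fold enrichment over background, the authors' own value per peak, of 5.56, 6.69 and 7.26 in KO and 6.32, 6.38 and 6.63 in WT. The range in KO took in the range in WT. The merged region reaches over the start, but a peak overlapped the 300-base window of that start in KO replicate 2 alone, and in the other 5 libraries the peak lay within 1 kb of it. Its neighbour, over a second RefSeq start (chr1:190168684-190169668), was called in 2 KO and 3 WT libraries, and in KO replicate 1 it was the stronger of these neighbours, with a fold of 5.75. A peak lay within 1 kb of a Prox1 start in all 6 libraries, which held for 10.9% of all RefSeq windows. The other members with a window had such a peak in fewer libraries, with 3 for Id2 (1 KO and 2 WT) and 3 for Npas3 (1 KO and 2 WT), and 1 each for Adarb2 (WT) and Nr2f1 (KO). The windows of Nr2f2, Reln, Npas1 and Sp8 had none in any library, as did 58.5% of all windows, and Htr3a was not assessed here.

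**Figure D3:**
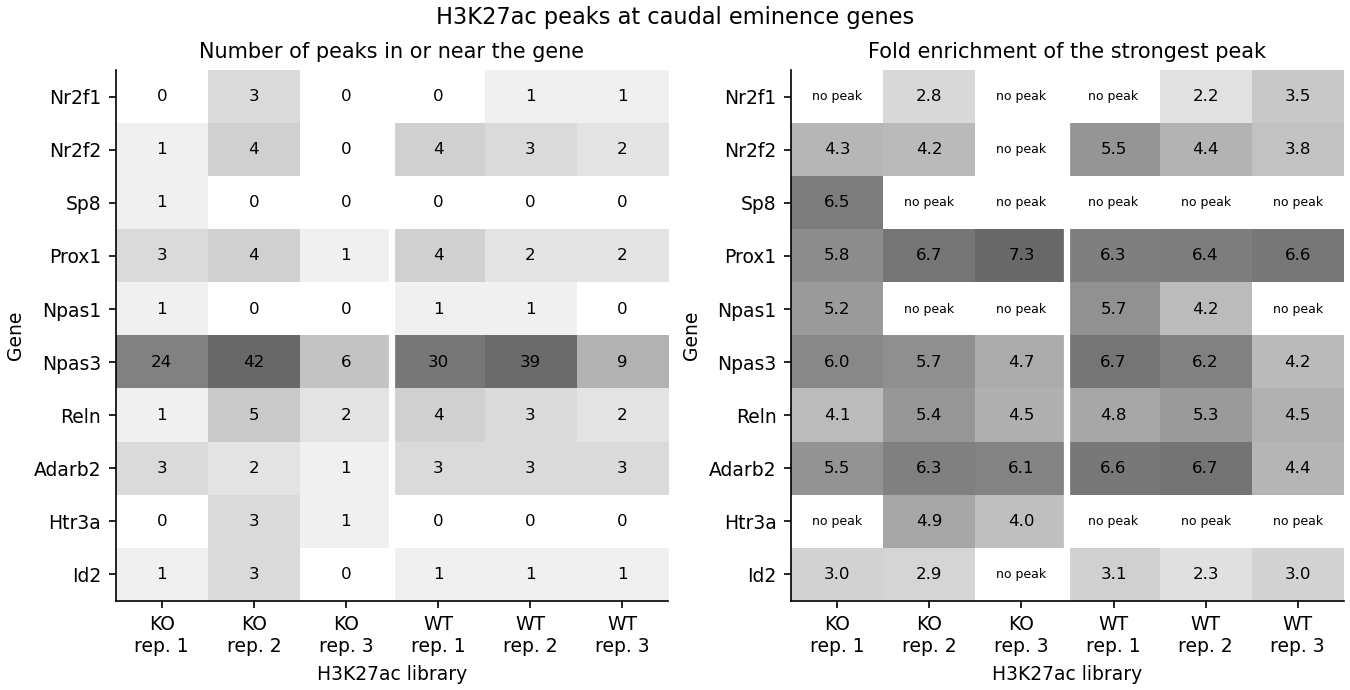
H3K27ac peaks in or within 2.5 kb of each of the 10 genes (rows) in 3 KO and 3 WT libraries (columns). Left, number of peaks; right, fold enrichment of the strongest peak over background, the authors' own value; darker cells are higher. Npas3 has 6 to 42 peaks in KO and 9 to 39 in WT, and only Prox1, Npas3, Reln and Adarb2 have a peak in every library.

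Nr2f2 had 1, 4 and 0 peaks in KO and 4, 3 and 2 in WT, so KO replicate 2 was as high as any WT library and the groups overlapped (exact permutation p = 0.5). Its strongest peaks had a fold enrichment of 4.31 and 4.21 in KO replicates 1 and 2 and of 5.46, 4.39 and 3.81 in WT. The region nearest to the lowered H3K9me3 was 7.34 kb away, inside the gene. Nr2f1, the paralogue of Nr2f2, had 0, 3 and 0 peaks in KO and 0, 1 and 1 in WT, with a strongest fold of 2.76 in KO replicate 2 and of 2.25 and 3.52 in WT. Sp8 had a single peak, in KO replicate 1 (fold 6.45), beyond the end of the gene. Npas1 had 1, 0 and 0 peaks in KO and 1, 1 and 0 in WT, all in a single merged region beyond the end of the gene. The fold there was 5.24 in KO and 5.65 and 4.16 in WT. Id2 had 1, 3 and 0 peaks in KO and 1 in each WT library. They were weak for their lists, with the strongest at the 1.09 and 5.79 percentiles in KO and the 1.39, 0.370 and 2.87 percentiles in WT.

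Htr3a, the gene that names the interneuron class, was the only member with peaks in KO and 0 in WT besides Sp8. It had 0, 3 and 1 peaks in KO and 0, 0 and 0 in WT, which is 0, 0.703 and 0.874 per 10000 peaks in KO. KO replicate 2, with 3 peaks, had the longest KO list, and KO replicate 1, with 0, the next in length. The exact permutation p was 0.4. The strongest had a fold of 4.89 in KO replicate 2 and of 3.96 in KO replicate 3, at the 71.4 and 31.3 percentiles of their lists. A single region, chr9:48903566-48903954 inside the gene, was called in both. Such patterns were common, since 24.9% of all 62979 merged regions had a peak in some KO library and in no WT library, and 34 of the 112 at the 10 genes did (30.4%). In the other direction there were 32 of the 112 (28.6%), against 22.2% of all. Npas3 alone held 18 of the 34 and 24 of the 32.

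Of the 112 merged H3K27ac regions at the 10 genes, 0 had a peak in all 3 KO and no WT library (0.124% of all merged regions did), and 0 had a peak in all 3 WT and no KO library (0.046% of all). With shares this small over all regions, 0 of 112 is near the background. In all 6 libraries there were 2, at Prox1 and Npas3 (1.79%, against 7.49% of all), and 61 were called in a single library (54.5%, against 43.8%). Npas3 alone held 74 of the 112 and 39 of the 61, so these shares are mostly those of 1 gene. A few of the 112 came close to the rule and were chosen after their values were seen. At Reln, chr5:21949138-21949368 had a peak in all 3 KO libraries (fold 4.15, 4.65 and 4.53) and in WT replicate 2 alone (fold 4.71). In the opposite direction, chr5:22247536-22248294 at Reln and chr7:70358728-70359224 at Nr2f2 each had a peak in all 3 WT libraries and in KO replicate 2 alone.

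Among the long genes, Npas3 stood out for the number of its peaks. It had 24, 42 and 6 peaks in KO and 30, 39 and 9 in WT, overlapping groups that followed list length (exact permutation p = 0.9). Over the 6 libraries that made 150 peaks in 74 merged regions. This was at the 99.1 percentile of the 352 genes of at least 400 kb, for which the median was 20, while Reln with 17 (42.9 percentile) and Adarb2 with 15 (39.2 percentile) were typical. The strongest peaks of Npas3 had a fold of 5.96, 5.68 and 4.70 in KO and 6.68, 6.23 and 4.18 in WT. Reln had 1, 5 and 2 peaks in KO and 4, 3 and 2 in WT, with a strongest fold of 4.15, 5.41 and 4.53 in KO and 4.82, 5.31 and 4.51 in WT. Adarb2 had 3, 2 and 1 in KO and 3 in each WT library, with a strongest fold of 5.53, 6.28 and 6.13 in KO and 6.57, 6.75 and 4.37 in WT. In each of the 3 genes the folds of the groups overlapped.

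Listed H3K9me3 regions took up 1.32% of the length of Npas3, 2.04% of Reln and 1.64% of Adarb2. Little of these long genes was thus open to an overlap of the marks. Whether overlap was rarer here than over all merged H3K27ac regions was not tested. Of the 112 merged H3K27ac regions, 1 overlapped a listed H3K9me3 region of a member. It was a peak of KO replicate 1 at chr12:53581507-53581648 in Npas3, with a fold of 5.66, and the H3K9me3 region it overlapped was the one with the higher KO mean. Without overlap, the nearest approach was 0.518 kb at Npas3, to a peak of KO replicate 2 alone. It was 1.81 kb at Reln and 2.06 kb at Adarb2. At Adarb2 this was between chr13:8584060-8585166, with H3K27ac in 2 KO and 3 WT libraries, and the listed region at chr13:8580001-8582000. The animals differ between the marks, so the values cannot be paired.

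**Figure D4:**
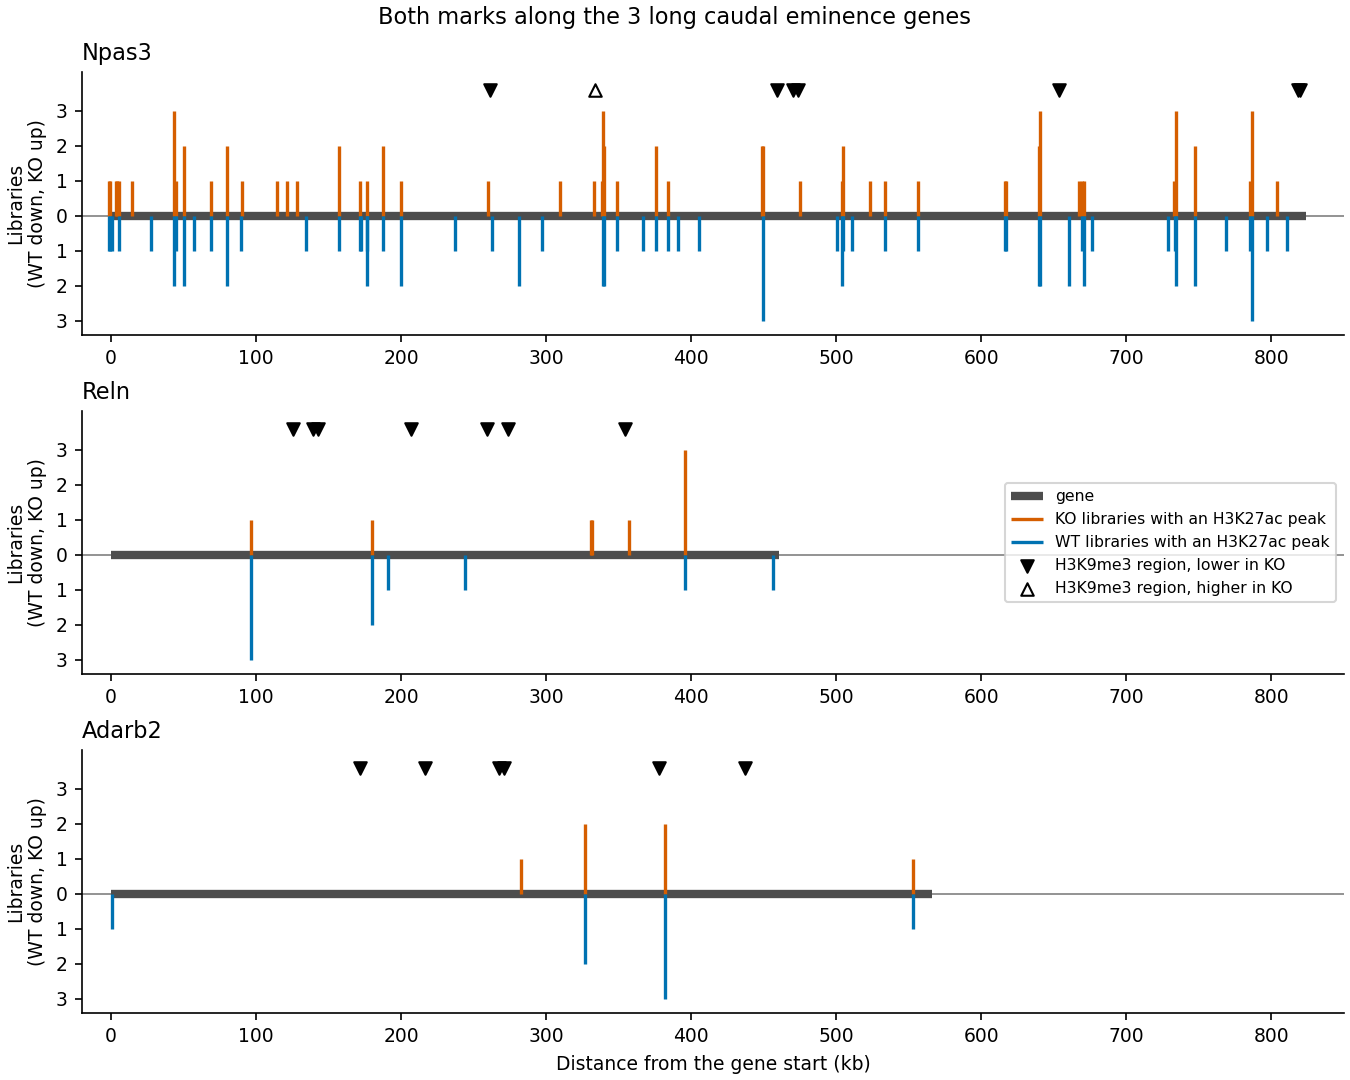
Positions of both marks along Npas3, Reln and Adarb2, as distance from the gene start (kb). Triangles are listed H3K9me3 regions, filled and pointing down where the KO mean is lower; lines are merged H3K27ac regions, with the number of KO libraries with a peak drawn upward and of WT libraries downward. The 21 regions of these genes lie between 125 and 820 kb from the start, and 1 is higher in KO.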

How the data were processed

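H3K9me3 and H3K27ac native ChIP-seq was analysed from the authors' deposited files (mm10; Bowtie2 2.3.4.3 and MACS2 per the submitters' processing notes, the MACS2 version not given there). What software made the H3K9me3 comparison is not stated in the labels.

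The authors' deposited H3K9me3 table gives normalised signal per library, group means, an enrichment ratio, a log2 fold change and p-values. The authors' deposited H3K27ac lists, called per library, give each peak a score, a fold over background and its -log10 p and -log10 q.

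limma 3.58.1 (R 4.3.3) was fitted with a trended prior variance to log2(value + 1) of all 50654 regions, with Benjamini-Hochberg adjustment, and tested on simulated data. The values were whole multiples of a step within 0.1 reads at 100% of low values, which gave 11.0, 36.4 and 13.7 M reads in listed regions in KO and 15.9, 19.6 and 28.4 M in WT. In regions with a WT mean under 10000 normalised reads there were 0.904, 5.96 and 4.04 M reads in KO and 2.22, 5.34 and 5.58 M in WT. A single read was worth 2.55 normalised reads in the first KO value, so low values there are coarse. H3K27ac peaks of the autosomes, X and Y that shared at least 1 bp were joined, and peak numbers per gene were compared with exact permutation tests. Gene positions and promoter windows came from RefSeq (GRCm38.p6). All 10 genes are named, with the 3 regions of smallest limma p in full where a gene has more than 3. The members and lists were chosen with earlier results of these data known, and 1 gene of the lists is not reported here. Alternatives covered the pseudocount, scaling, a filter on low values, recovered reads, the authors' adjusted p, peak windows and thresholds, list length and left-out libraries. The labels name separate animals. Setdb1 was not measured by these marks, so the genotype labels were not checked.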

Additional observations from a re-analysis of the deposited data

How the results depend on the processing

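Counts of H3K9me3 regions lower in KO at the 10 genes depended on the test. Of the 22 regions, limma called 4, and 2 with a pseudocount of 0.5 (12.1% of all listed regions), 14 with a pseudocount of 5 (33.3% of all), 2 under median-ratio scaling, 18 with limma-voom on recovered reads, 21 by the authors' adjusted p, and 0 to 21 when 1 listed value was left out (21 only without the third KO value). A minimum mean of 20 kept 4. Higher calls numbered 1 under median-ratio scaling and 1 by the authors' adjusted p. Of 242 values of single regions over 11 settings, 2 changed sign, both under median-ratio scaling, to 0.072 at Adarb2 (chr13:8469501-8471100) and 0.067 at Reln (chr5:22084701-22086600). The Egln3 region was called lower (1 region) with a pseudocount of 5, with limma-voom and by the authors' adjusted p, and 0 to 1 regions were called when 1 listed value was left out. The cause of these shifts was not tested.

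For H3K27ac, leaving out 1 library gave 0 to 1 KO-only and 0 to 2 WT-only regions at the 10 genes, where 0.133% to 1.41% of all merged regions were KO-only and 0.0557% to 1.27% WT-only. The difference in mean number of peaks, KO minus WT, changed sign at Nr2f1 (0.333) with a window of 10 kb (-0.667) and with an equal number of peaks per list (-0.333). At Npas3 (-2) it turned to 1 with -log10 q of at least 5 and to 2 with equal lists. At Reln (-0.333) it turned to 1 with -log10 q of at least 5, to 0.333 with equal lists and to 1 in the 4 libraries of replicates 2 and 3, which share a title number. With 1 library left out it ran from -0.667 to 0.833 at Nr2f1, from -11 to 7 at Npas3, from -1.5 to 0.5 at Reln and from -0.5 to 1 at Id2. No paired analysis was possible because the listed H3K9me3 values are not tied to animals and the replicate numbers follow accession order. For H3K27ac, permuting genotype within title numbers only, an alternative chosen after seeing the data, gave exact p from 0.333 to 1 (smallest possible 0.167).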
